A study of Mus musculus with 4 samples.

Results

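Arginine metabolism was followed through 7 genes of the 32285 measured: Slc7a2, Nos2, Ass1, Asl, Arg1, Arg2 and Odc1. They were picked by symbol, as the carrier, the synthase, the recycling enzymes, the arginases and the first polyamine enzyme of the pathway, and each had counts in every library. The cells were immune cells of liver metastases of MC38, a mouse colon carcinoma line, in C57BL/6J mice, enriched on beads for CD45 and profiled with 10x Genomics 3′ single-cell RNA sequencing. HFD_shYap came from mice on a high-fat diet with MC38 cells carrying a Yap knockdown, and HFD_WT from the same diet with unmodified (WT) MC38 cells. LFD_shYap came from a low-fat diet with the knockdown cells, and LFD_WT from a low-fat diet with WT cells. The titles describe the host mice of all 4 libraries as WT. No combination had a replicate, so a contrast between single libraries has no replicate check. In the additive fit of diet and tumour line over 4 libraries, a difference in diet ratio between the lines counts as error. No spread between replicate samples is measured. By its layout the study asks what the mouse's diet and Yap loss in the cancer cells each do to tumour immune cells.

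The labels had limits that touch every contrast. LFD_shYap is low-fat by its title and high-fat by its treatment field, and the title was used. Yap1, the targeted gene, stood at 22 CPM (UMIs scaled to the same total in each library) in HFD_shYap and 16.8 in HFD_WT in the collagen- and Tm4sf1-bearing clusters that hold most of its counts, a ratio of 1.31 (95% interval 1.05 to 1.62). It stood at 17.9 CPM in LFD_shYap and 20.2 in LFD_WT, a ratio of 0.886 (0.762 to 1.03). In this sum the knockdown was not visible in the library labelled HFD_shYap, and the interval for LFD_shYap holds a ratio of 1, so it was not shown there either. Tm4sf1-led cluster 14 gave 77, 484, 394 and 485 of its cells in HFD_shYap, HFD_WT, LFD_shYap and LFD_WT. Cluster 16, named fibroblast or stellate cells, gave 61, 227, 403 and 321. Host cells would not carry the knockdown, and cluster 14 alone was not measured, so the sum cannot tell whether the knockdown was present. No cluster was named as tumour cells, and each tumour line direction rests on the labels. Xist was at 354 CPM in HFD_shYap and at most 0.0588 CPM in the other libraries. Of the 4465 phagocytes of HFD_shYap, 1367 had Xist and no Y-linked UMIs, 2067 had Y-linked UMIs and no Xist, and 306 had both. Ptprc, the gene of CD45, was detected at 364, 329, 277 and 280 CPM over the kept cells of HFD_shYap, HFD_WT, LFD_shYap and LFD_WT. The matrices held 106268471 to 144936859 UMIs per library, and 38243 cells were kept. Among the barcodes of kept cells, 157 occurred in more than 1 library.

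Arginine enters macrophages through cationic amino acid carriers, of which CAT2, made from Slc7a2, is the inducible one. Inside the cell, nitric oxide synthase and arginase compete for it. The inducible synthase (Nos2) makes nitric oxide and citrulline, and argininosuccinate synthase (Ass1) and lyase (Asl) turn citrulline back into arginine. Arginase splits arginine into urea and ornithine, in the cytosol for Arg1 and in mitochondria for Arg2, and ornithine decarboxylase (Odc1) commits ornithine to polyamines. In mouse macrophages Nos2 is known as a gene induced by interferon-gamma and microbial signals, and Arg1 as one induced by type 2 cytokines and hypoxia, and arginine-consuming myeloid cells are known to restrain T cells in tumours.

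RefSeq promoter sequence of the GRCm38.p6 build was at hand for Ass1 and Odc1 only. It is shown for Ass1, whose RNA differed between diets in phagocytes and dendritic cells, beside Odc1, whose RNA did not pass that test. Each run is on the plus strand and ends at the base before the gene's GENCODE start, which lies 63 bases before the RefSeq start for Ass1 and 79 for Odc1. Capitals mark GGGCGG, the GC box, read on either strand.
Ass1, chr2:31470020-31470206: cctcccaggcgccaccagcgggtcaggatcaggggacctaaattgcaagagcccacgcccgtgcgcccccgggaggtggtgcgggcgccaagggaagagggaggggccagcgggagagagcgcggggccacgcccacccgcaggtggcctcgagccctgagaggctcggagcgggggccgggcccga
Odc1, chr12:17544623-17544793: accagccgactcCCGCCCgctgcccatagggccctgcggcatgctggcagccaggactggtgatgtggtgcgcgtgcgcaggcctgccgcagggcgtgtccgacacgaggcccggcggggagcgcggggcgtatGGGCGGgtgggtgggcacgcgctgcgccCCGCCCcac
The windows of 300 bases searched ran from 250 bases before to 50 after the RefSeq start. They were 74% and 78% G and C for Ass1 and Odc1, against a median of 52.7% over 32817 promoter windows. Odc1 had 4 GC boxes, at 238, 116, 88 and 15 bases before the RefSeq start. Ass1 had 1, at 63 bases before it, and 1 E-box, CACGTG, at 36 bases before it. Over all windows 35.6% held a GC box and 7.15% an E-box. TATAAA, TTCNNNGAA and TGACGTCA, searched on both strands too, had no match in either window, and were in 13.6%, 8.29% and 1.79% of all windows. GGGCGG and CACGTG do not overlap each other in these windows.

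Mononuclear phagocytes, the monocytes and macrophages, held most of the RNA of 5 of the 7 genes. They were 22836 of the 38243 kept cells: 4465 in HFD_shYap, 6321 in HFD_WT, 5809 in LFD_shYap and 6241 in LFD_WT. They held 95.2 to 97.4% of the Arg1 UMIs of a library, 91.0 to 95.6% of Slc7a2, 78.4 to 92.1% of Nos2, 71.4 to 77.4% of Asl and 54.7 to 77.1% of Arg2. Their part was smaller for Odc1, at 43.8 to 56.2%, and for Ass1, at 45.4% in HFD_shYap, 53.2% in HFD_WT, 25.2% in LFD_shYap and 28.0% in LFD_WT. Cell types were named from marker genes and stand for cells like that type, and all 10 phagocyte markers were above the counting floor in the phagocytes of every library. Levels below are CPM of the UMIs summed over the cells of a type in a library. They are compared between cells and libraries for a gene and not between genes, and each interval covers counting error only.

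Slc7a2 was a macrophage gene. Outside the phagocytes it was seen in Kupffer cells, the resident macrophages of the liver, at 39.8 CPM in HFD_shYap and 15.5 in LFD_shYap, the libraries with at least 50 such cells. Fibroblast or stellate cells had 11.5, 10.3, 1.25 and 1.99 CPM in HFD_shYap, HFD_WT, LFD_shYap and LFD_WT, and no other named type with at least 50 cells exceeded 5.85 CPM.

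Nos2 was highest in neutrophils, with 43.0 CPM in HFD_shYap, 53.5 in HFD_WT and 31.9 in LFD_shYap. In LFD_WT the neutrophils had 3 Nos2 UMIs, a level of 3.89 CPM (0.802 to 11.4) whose range holds the 1.36 CPM of that library's phagocytes. In the other libraries phagocytes followed, and T lineage, NK and B cells and the conventional and mature dendritic cells had at most 2.99 CPM, from 1 UMI.

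Ass1 was highest in dendritic cells in every library but LFD_shYap, where B cells, with 53 cells, had 86.8 CPM. Mature dendritic cells, the Ccr7-bearing migratory form, had 331, 189 and 202 CPM in HFD_shYap, HFD_WT and LFD_WT, with 21 cells only in LFD_shYap. Conventional dendritic cells 2 had 118, 126, 41.5 and 86.3 CPM in HFD_shYap, HFD_WT, LFD_shYap and LFD_WT, and the unnamed Tm4sf1-bearing cluster 14 had 81.0, 72.0, 49.1 and 40.9 CPM. Phagocytes stood below these in every library, and NK cells and neutrophils lower still in most, at 0 to 8.09 CPM. Asl, the next enzyme of the same path, was much more even. Mature dendritic cells again stood highest, at 76.5, 108 and 84.2 CPM in HFD_shYap, HFD_WT and LFD_WT, and neutrophils lowest, at 6.27 to 13.0 CPM. Every other named type with at least 50 cells lay between 14.5 and 41.5 CPM.

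The arginases differed in their cells. Arg1 in phagocytes was at 1224, 850, 547 and 830 CPM in HFD_shYap, HFD_WT, LFD_shYap and LFD_WT. In the T lineage it was at 71.3 to 86.0 CPM, which was below the level that phagocyte RNA at the measured share of phagocyte markers there would give in each library (86.8 to 144 CPM). The estimate takes all marker RNA in those cells as phagocyte RNA. Expression of the markers by the cells themselves would make it too high, and the source of the Arg1 RNA was not tested. B cells had 151, 728, 170 and 299 CPM in HFD_shYap, HFD_WT, LFD_shYap and LFD_WT, from 47 to 244 UMIs, and no such estimate was made for them. Levels under the estimate were also found in dendritic cells in all 4 libraries and in neutrophils in all but LFD_shYap, where 96.8 CPM stood against 87.6. Arg2 was a neutrophil gene, at 565 CPM in HFD_shYap, 455 in HFD_WT, 254 in LFD_shYap and 309 in LFD_WT, against 10.5 to 16.7 CPM in phagocytes and 44.9 and 45.6 CPM in the Kupffer cells of HFD_shYap and LFD_shYap.

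Odc1 was broad. The T lineage had 615, 535, 392 and 492 CPM in HFD_shYap, HFD_WT, LFD_shYap and LFD_WT, near the 426, 578, 361 and 365 CPM of fibroblast or stellate cells, and which of these stood higher changed between libraries. Cluster 14 had 371, 717, 447 and 386 CPM. Phagocytes lay lower, at 115 to 239 CPM, and neutrophils lowest among the types with at least 50 cells in each library, at 51.9 to 156 CPM.

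**Figure D1:**
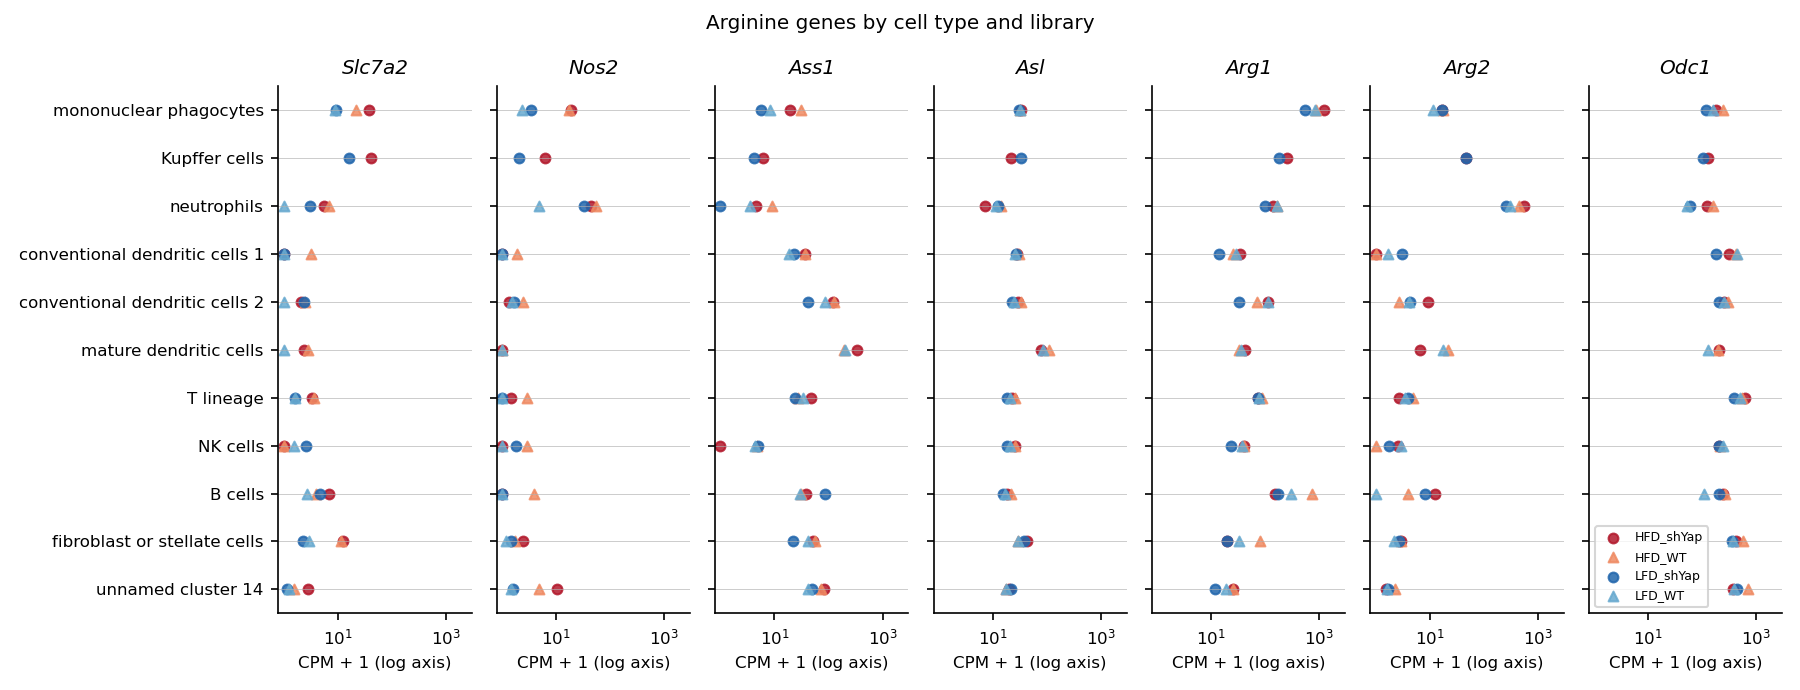
CPM + 1 on a log axis of each gene in each cell type, 1 point per library with at least 50 cells of the type; circles are shYap libraries and triangles WT libraries, red high-fat and blue low-fat. Arg1 is highest in phagocytes, Slc7a2 in phagocytes and Kupffer cells, Nos2 and Arg2 in neutrophils, and Ass1 and Asl in mature dendritic cells in the 3 libraries that show them.

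In phagocytes, Nos2, Ass1 and Slc7a2 rose in the high-fat libraries over both tumour lines, while Arg1, Arg2, Asl and Odc1 did not pass the test. All 7 genes passed the filter on low counts in phagocytes. The test was edgeR's quasi-likelihood test on summed UMIs, with diet and tumour line as additive terms, 1 residual degree of freedom and Benjamini-Hochberg adjustment over 14158 genes at 0.05. It called 3 of the 7 genes higher, where 0.275% of all genes tested were called higher, and none lower, where 0.113% were called lower. The libraries drew their phagocytes largely from different clusters: cluster 0 gave 30.01% of them in HFD_shYap, cluster 6 34.8% in HFD_WT, cluster 7 34.4% in LFD_shYap and cluster 4 28.5% in LFD_WT.

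Slc7a2 (ENSMUSG00000031596, plus strand of GRCm38 chromosome 8, 40862396 to 40922308), the arginine carrier gene, had 36.7 CPM in HFD_shYap (35.3 to 38.2) and 20.8 in HFD_WT (19.8 to 21.8), against 8.34 in LFD_shYap (7.69 to 9.03) and 7.77 in LFD_WT (7.09 to 8.49). Both high-fat libraries stood above both low-fat ones. How many of all genes were parted in this way was not counted, here or for the genes below. Its log2 fold change with diet was 1.73 (SE 0.177, edgeR adjusted p = 0.0116). Within the lines the ratio was 4.40 (4.03 to 4.82) between HFD_shYap and LFD_shYap and 2.68 (2.42 to 2.97) between HFD_WT and LFD_WT. Gm26584 has exons on the opposite strand.

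Nos2 (ENSMUSG00000020826, plus strand of chromosome 11, from 78920787 to 78960254), the nitric oxide producer, had 17.99 CPM in HFD_shYap (17.0 to 19.1) and 16.7 in HFD_WT (15.8 to 17.6), against 2.43 in LFD_shYap (2.09 to 2.81) and 1.36 in LFD_WT (1.08 to 1.68). These are 1170, 1352, 178 and 85 UMIs, so the low-fat values rest on few molecules. The groups did not overlap, and the log2 fold change was 3.18 (SE 0.26, edgeR adjusted p = 0.00907), which put it at rank 2 of all genes by p. The ratio was 7.40 (6.32 to 8.72) in the shYap pair and 12.3 (9.86 to 15.5) in the WT pair.

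Ass1 (ENSMUSG00000076441, plus strand of chromosome 2, 31470207 to 31520672), which makes argininosuccinate from the citrulline that Nos2 releases, had 18.3 CPM in HFD_shYap (17.3 to 19.4) and 29.3 in HFD_WT (28.1 to 30.5), against 4.66 in LFD_shYap (4.17 to 5.18) and 7.38 in LFD_WT (6.73 to 8.09). Its log2 fold change was 1.93 (SE 0.163, edgeR adjusted p = 0.00907). The ratio was nearly the same in both lines, 3.94 (3.49 to 4.46) for the shYap pair and 3.97 (3.59 to 4.39) for the WT pair. Asl (ENSMUSG00000025533, minus strand of chromosome 5, 130011258 to 130029247), the lyase that completes the recycling, did not share this: it had 32.7, 31.1, 29.98 and 31.0 CPM in HFD_shYap, HFD_WT, LFD_shYap and LFD_WT, and a log2 fold change of 0.01 (SE 0.146).

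Arg1 (ENSMUSG00000019987, minus strand of chromosome 10, 24915221 to 24927484), the cytosolic arginase, differed with diet between the shYap libraries and hardly between the WT libraries. The ratio was 2.24 (2.21 to 2.27) for HFD_shYap over LFD_shYap and 1.02 (1.01 to 1.04) for HFD_WT over LFD_WT, with the levels given above. LFD_shYap was the lowest library and HFD_shYap the highest, and the log2 fold change over both lines was 0.55 (SE 0.264, edgeR adjusted p = 0.891). Arg2 (ENSMUSG00000021125, plus strand of chromosome 12, 79130777 to 79156301), the mitochondrial arginase, had 15.9, 16.7 and 16.1 CPM in HFD_shYap, HFD_WT and LFD_shYap, and 10.5 in LFD_WT. Its log2 fold change was 0.27 (SE 0.22, edgeR adjusted p = 1), and its exons overlap those of Gm48780 and Vti1b on the opposite strand.

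Odc1 (ENSMUSG00000011179, plus strand of chromosome 12, 17544794 to 17551505), the entry to polyamines, had 178 CPM in HFD_shYap and 239 in HFD_WT, against 115 in LFD_shYap and 156 in LFD_WT. The ratio was 1.55 (1.5 to 1.59) for the shYap pair and 1.53 (1.49 to 1.57) for the WT pair, so it was alike in size in both. With a log2 fold change of 0.57 (SE 0.167) it did not pass the test over all genes (edgeR adjusted p = 0.426). Of the 7 genes, 4 were at least 2-fold higher in HFD_shYap than in LFD_shYap and none 2-fold lower, as were 4.25% and 2.46% of 14062 genes. In HFD_WT over LFD_WT, 3 were 2-fold higher and none lower, as were 2.56% and 2.74% of 14139 genes.

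**Figure D2:**
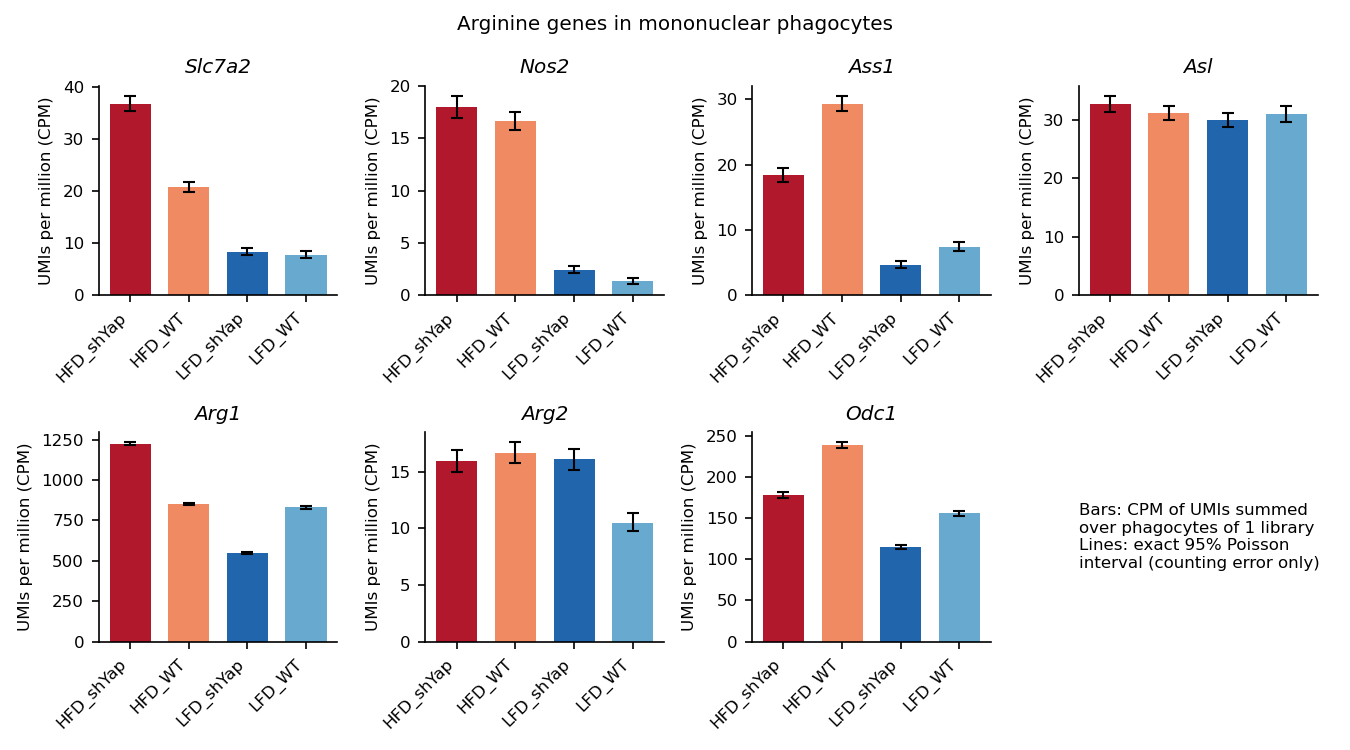
CPM of UMIs summed over the phagocytes of each library (vertical axes start at 0), with exact 95% Poisson intervals for counting error. Slc7a2, Nos2 and Ass1 are higher in both high-fat libraries than in both low-fat ones; Asl lies between 29.98 and 32.7 CPM in all 4.

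The 3 calls rest on the title of LFD_shYap: with the diet of its treatment field none of the 7 genes was called, Nos2 having 3.67 on the log2 scale (SE 1.13, edgeR adjusted p = 1). Without HFD_WT, Ass1 fell short of the threshold at 1.51 (edgeR adjusted p = 0.184), and without HFD_shYap, or with doublets kept, Slc7a2 did, at 1.37 (edgeR adjusted p = 0.0669) and 1.70 (edgeR adjusted p = 0.0505).

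Other cells' RNA within the phagocytes was measured beside these values. All 8 neutrophil markers were above the counting floor of 3 UMIs in the phagocytes of every library, with a summed level of 105, 330, 366 and 143 CPM in HFD_shYap, HFD_WT, LFD_shYap and LFD_WT, which is 0.143 to 0.401% of their level in neutrophils themselves. Cluster 1 held the most Nos2 UMIs of the phagocyte clusters, and the marker list that scored highest in it was that of neutrophils. There the sum of neutrophil markers was higher, at 309, 1347, 3322 and 820 CPM, and their part in the results was not tested. Without that cluster it was 81.1, 215, 119 and 66.0 CPM in HFD_shYap, HFD_WT, LFD_shYap and LFD_WT, and the diet fold changes of Nos2, Ass1 and Slc7a2 were 3.36, 2.20 and 1.64 (log2), with edgeR adjusted p-values of 0.00512, 0.00512 and 0.0133. Kupffer cell markers were at 54.0, 61.3, 149 and 81.2 CPM, and hepatocyte markers at 838, 803, 1107 and 846 CPM, in HFD_shYap, HFD_WT, LFD_shYap and LFD_WT, and the part of either in the results was not tested. The Xist-bearing and the Y-bearing phagocytes of HFD_shYap were close to each other in Nos2, at 17.9 and 18.9 CPM, and further apart in Slc7a2, at 46.0 and 27.1 CPM.

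For tumour line, shYap over WT across both diets, edgeR called 0 of the 7 genes, where 0.0353% of 14158 genes were called in either direction, all lower. At an unadjusted edgeR p under 0.05 there were 3 of the 7 genes, and 802 of all 14158. DESeq2 called 0 of the 7 as well, and 16 higher and 12 lower of 13582 genes. Ass1 had a fitted log2 change of -0.68 (SE 0.159, edgeR adjusted p = 0.607) and a ratio of 0.626 (0.584 to 0.671) for HFD_shYap over HFD_WT and 0.63 (0.547 to 0.727) for LFD_shYap over LFD_WT. Odc1 had -0.44 (SE 0.167, edgeR adjusted p = 0.841), with ratios of 0.746 and 0.739 in the same pairs. Slc7a2 had 0.46 (SE 0.173, edgeR adjusted p = 0.841), with 1.77 (1.66 to 1.88) for HFD_shYap over HFD_WT and 1.07 (0.952 to 1.21) for LFD_shYap over LFD_WT. None of the 7 genes reached 2-fold in either pair, where 2.6% of genes were higher and 1.85% lower by that much in HFD_shYap over HFD_WT, and 2.09% higher and 2.86% lower in LFD_shYap over LFD_WT. For Arg1 the pairs went opposite ways, 1.44 for HFD_shYap over HFD_WT and 0.659 for LFD_shYap over LFD_WT, which is taken up among the flagged results.

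**Figure D3:**
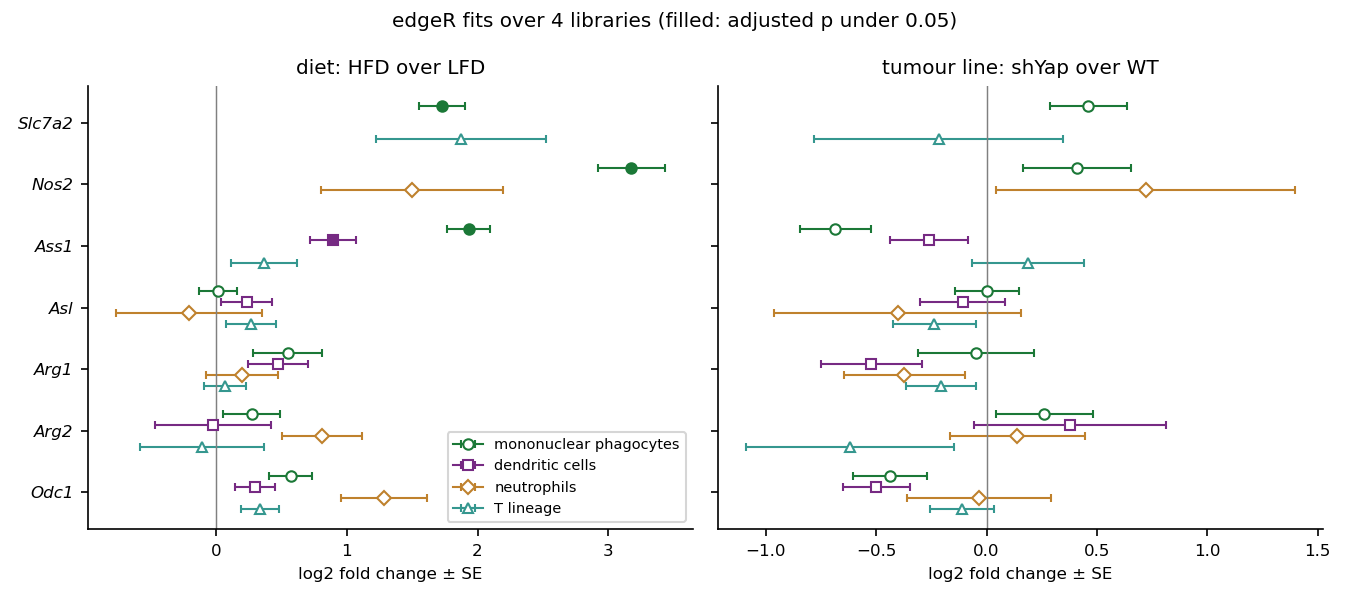
Log2 fold change ± SE from edgeR's additive fits over 4 libraries, for diet (HFD over LFD, left) and tumour line (shYap over WT, right), in phagocytes, dendritic cells, neutrophils and T lineage cells. Filled points, Slc7a2, Nos2 and Ass1 in phagocytes and Ass1 in dendritic cells, have an adjusted p under 0.05; none is filled for tumour line.

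The phagocytes fell into 10 clusters, made without the 7 genes among the variable genes, and the arginine genes were uneven over them. Nos2 was highest in cluster 1 in every library but LFD_WT. This cluster was led by Chil3, Ly6c2, F10, Vcan and Hp, followed by Lcn2, S100a8, Mmp8, Cxcl3 and Slpi. Several of these, such as S100a8, Lcn2 and Mmp8, are known as neutrophil genes. Of the marker lists, that of neutrophils scored highest in it (log2 2.23, 4 of 8 markers). Its phagocyte markers were at 38.4 to 48.8% of their level over all phagocytes. Its neutrophil markers were at 0.42 to 1.64% of their level in neutrophils. Cluster 1 was counted with the phagocytes all the same, and its name is uncertain. It was 9.93 to 14.6% of the phagocytes of a library and held 47.2% of their Nos2 UMIs in HFD_shYap, 39.3% in HFD_WT, 56.2% in LFD_shYap and 41.2% in LFD_WT. Its Nos2 level was 81.0, 64.6, 17.7 and 5.50 CPM in HFD_shYap, HFD_WT, LFD_shYap and LFD_WT. Nos2 was at 22.3, 25.6, 5.82 and 6.60 CPM in cluster 0 (Mmp12, Gpnmb) and at 12.1, 41.1, 2.33 and 1.67 CPM in cluster 3 (Cxcl9, MHC class II genes). The remaining clusters had at most 10.6 CPM.

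Slc7a2 and Arg1 shared their highest cluster. Cluster 2, led by Marco, Slpi, Cd5l and Vsig4, some of which are Kupffer cell markers, had 377, 457, 103 and 115 CPM of Slc7a2 in HFD_shYap, HFD_WT, LFD_shYap and LFD_WT. With 1.22 to 3.05% of the phagocytes it held 28.1 to 57.6% of their Slc7a2 UMIs. Its Arg1 level was 6495, 4836, 4086 and 4165 CPM, followed by cluster 1 at 2963, 1989, 892 and 2050 CPM. Without cluster 2 the diet fold changes of Nos2, Ass1 and Slc7a2 were 3.16, 2.01 and 2.03 (log2), all still past the threshold.

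Ass1 was highest in cluster 3 in every library but LFD_WT, at 53.9 and 93.9 CPM in HFD_shYap and HFD_WT, against 17.4 and 24.2 CPM in LFD_shYap and LFD_WT. Cluster 1 had 32.0, 69.6, 17.0 and 28.1 CPM in HFD_shYap, HFD_WT, LFD_shYap and LFD_WT. In the Vcam1- and Apoe-led cluster 7 and the Lyve1-led cluster 4, it had 0.694 to 6.66 CPM. Arg2 was highest in cluster 1, at 63.3, 62.0, 53.4 and 39.9 CPM in HFD_shYap, HFD_WT, LFD_shYap and LFD_WT, beside the neutrophil markers given above for this cluster. Asl stayed between 20.8 and 40.9 CPM in every cluster of every library.

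The diet difference was also measured within clusters, where the mix of clusters does not enter. Nos2 was higher in HFD_shYap than in LFD_shYap in 7 of 10 clusters and in HFD_WT than in LFD_WT in 8 of 10, by intervals that leave out a ratio of 1, and lower in none. Ass1 was higher in 8 of 10 in both pairs and Slc7a2 in 9 and 5, again lower in none. Arg1 was higher in 8 and lower in 2 in the shYap pair, and higher in 7 and lower in 2 in the WT pair. With equal weight to each cluster, the ratio of HFD_shYap to LFD_shYap and of HFD_WT to LFD_WT was 4.09 and 9.52 for Nos2, 2.44 and 2.91 for Ass1, 4.11 and 3.33 for Slc7a2 and 1.73 and 1.10 for Arg1. For tumour line, Odc1 was lower in HFD_shYap than in HFD_WT in 10 of 10 clusters and lower in LFD_shYap than in LFD_WT in 7 of 10.

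**Figure D4:**
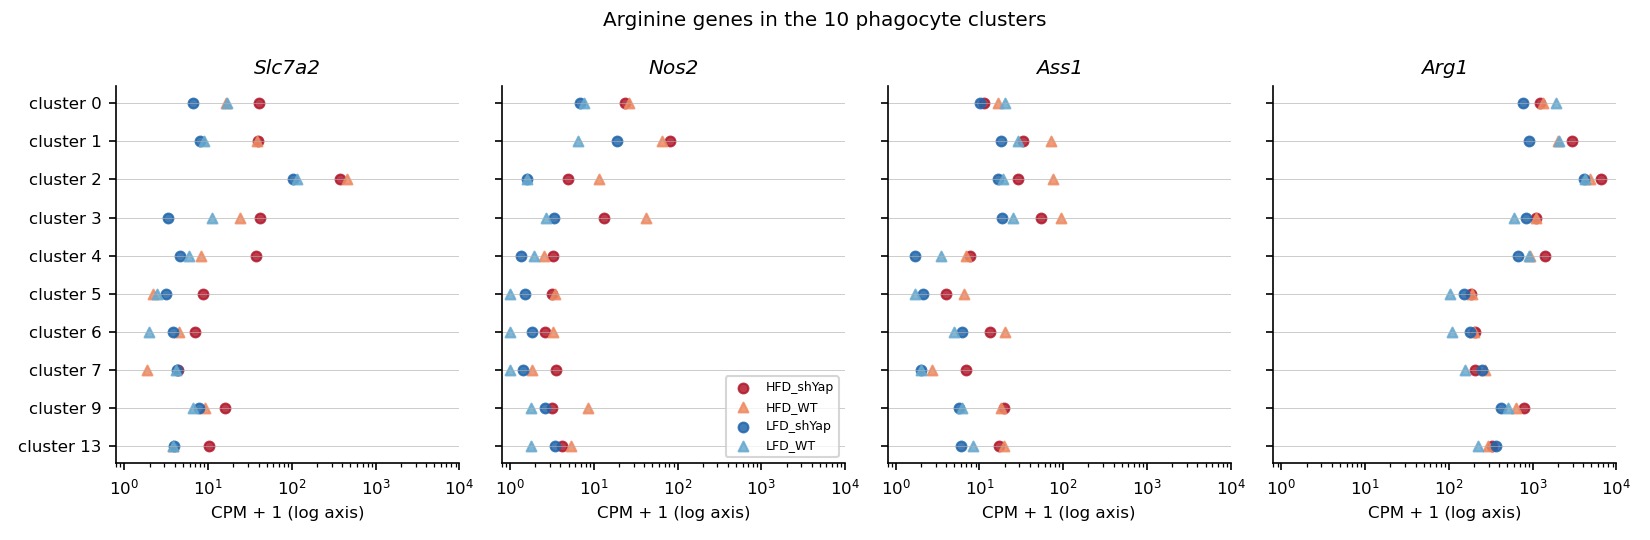
CPM + 1 on a log axis of 4 genes in each of the 10 phagocyte clusters, 1 point per library, with circles for shYap and triangles for WT, red for high-fat and blue for low-fat. Cluster 2 has the highest Slc7a2 and Arg1, cluster 1 the highest Nos2 in 3 libraries, and cluster 3 the highest Ass1 in all but LFD_WT.

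In dendritic cells, Ass1 rose in the high-fat libraries. It had 105 CPM in HFD_shYap (97.3 to 113) and 95.9 in HFD_WT (88.5 to 104), against 41.0 in LFD_shYap (34.3 to 48.7) and 67.9 in LFD_WT (59.97 to 76.6), with a fitted log2 change of 0.89 (SE 0.178, edgeR adjusted p = 0.00975). It was the only one called of the 5 genes tested there, where 0.298% of 10404 genes were called higher. Mature dendritic cells, the type with the highest Ass1, were 75 of 455, 71 of 612, 21 of 305 and 61 of 449 of these cells in HFD_shYap, HFD_WT, LFD_shYap and LFD_WT, and their part in the difference was not tested. Conventional dendritic cells 1 alone had 35.5, 36.0, 21.98 and 17.3 CPM. The call was lost with DESeq2 (adjusted p = 0.411), with the diet of the treatment field, and without LFD_shYap, HFD_WT or HFD_shYap, with log2 fold changes of 0.54 to 1.25 over all 8 alternatives.

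In neutrophils edgeR called none of 5 genes tested for diet, with 2 at an unadjusted p under 0.05, and DESeq2 called 0 of the 3 it tested, with all 3 at an unadjusted p under 0.05. Of all 6521 genes edgeR called none (0%), with 635 at an unadjusted p under 0.05, while DESeq2 called 21 higher and 0 lower of 2541 genes. Arg2 had the levels given above, with 2.22 (1.91 to 2.58) for HFD_shYap over LFD_shYap and 1.47 (1.28 to 1.71) for HFD_WT over LFD_WT, and its fitted log2 change was 0.81 (SE 0.307, edgeR adjusted p = 0.486). Odc1 had 122, 156, 57.7 and 51.9 CPM in HFD_shYap, HFD_WT, LFD_shYap and LFD_WT, and 1.28 (SE 0.33, edgeR adjusted p = 0.373). Both genes were higher in both high-fat libraries than in both low-fat ones, and how many of all genes were so was not counted. Nos2 had 48, 119, 31 and 3 UMIs there and a fitted log2 difference of 1.497 (SE 0.695, edgeR adjusted p = 0.521). The summed neutrophil markers were themselves higher in LFD_shYap, at 203678 CPM, than in the other libraries, at 73616 to 82251 CPM, and the libraries also differed in their neutrophil clusters. Cluster 28, led by Ngp, S100a8, S100a9 and Camp, genes known from immature neutrophils, held 33 of the 352 neutrophils of LFD_shYap and 3 or 4 of those of each other library, with a median of 8191.5 UMIs per cell against 1895.5 in cluster 19, which held the rest. In cluster 19 alone, an alternative chosen after the data were seen, edgeR called Nos2 (1.38, SE 0.384, adjusted p = 0.0216) and Odc1 (1.18, SE 0.313, adjusted p = 0.0135) higher with diet, 2 of the 5 genes tested, where 1.87% of 6259 genes were called higher and 0.32% lower. Nos2 had 48, 119, 25 and 3 UMIs in those cells, or 44.0, 54.0, 40.5 and 3.95 CPM, in HFD_shYap, HFD_WT, LFD_shYap and LFD_WT, so the shYap libraries were close to each other and LFD_WT stood apart. Arg2 had 573, 459, 366 and 313 CPM there and was not called (0.61, SE 0.309, edgeR adjusted p = 0.421), and its ratio of HFD_shYap to LFD_shYap was 1.56 (1.34 to 1.83). Phagocyte markers in the neutrophils were at 16.4, 24.8, 16.03 and 33.6% of their level in phagocytes in HFD_shYap, HFD_WT, LFD_shYap and LFD_WT. Phagocyte RNA at that share, with the mean Nos2 level of all phagocytes, would give 0.389 to 4.13 CPM of Nos2, below the measured level in each library. Phagocyte cluster 1 had more Nos2 than that mean, and its phagocyte markers were at 38.4 to 48.8% of their level over all phagocytes. RNA from such cells would give a higher estimate, which was not made. The source of the Nos2 RNA in neutrophils was not tested.

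In the T lineage edgeR called none of 6 genes tested for diet, with 2 at an unadjusted p under 0.05. DESeq2 called 0 of the 4 it tested, and 16 higher and 16 lower of 6308 genes. Over all 10877 genes edgeR called 0.432% higher and 0.423% lower, with 987 at an unadjusted p under 0.05. Cluster 18 held 472 of 934, 497 of 1158, 307 of 676 and 353 of 640 T lineage cells in HFD_shYap, HFD_WT, LFD_shYap and LFD_WT, and cluster 20 most of the others. Slc7a2 had 1.87 (SE 0.651, edgeR adjusted p = 0.322), at no more than 2.69 CPM. Odc1 had a fitted log2 change of 0.34 (SE 0.146, edgeR adjusted p = 0.502) and Ass1 0.37 (SE 0.255, edgeR adjusted p = 0.747), with 46.9, 26.4, 22.5 and 32.2 CPM of Ass1 in HFD_shYap, HFD_WT, LFD_shYap and LFD_WT. For tumour line none of the genes tested was called in dendritic cells, neutrophils or T lineage, where 0.183% (0.0673% higher, 0.115% lower), 0% and 0.0919% of all genes were called in either direction. At an unadjusted edgeR p under 0.05 there were 2 of the genes in dendritic cells, Odc1 (-0.50, SE 0.153) and Arg1 (-0.52, SE 0.231). There were 0 in the other lineages, and DESeq2 called 0 of the 7 in each. Over all genes DESeq2 called 2 higher and 1 lower of 16797 in dendritic cells and 0 of 15276 in neutrophils. In the T lineage it called 0 higher and 7 lower of 17513. Of all genes, 618 of 10404 in dendritic cells, 432 of 6521 in neutrophils and 647 of 10877 in the T lineage had such a p.

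Nos2 and Arg1 are often used as opposite marks of macrophage states, and were asked for in the same cells. Phagocytes were thinned to 5000 UMIs each, which left 4096, 5694, 5195 and 5014 cells in HFD_shYap, HFD_WT, LFD_shYap and LFD_WT. At least 1 Nos2 UMI was found in 4.57, 4.43, 0.905 and 0.558% of them, and at least 1 Arg1 UMI in 53.3, 47.4, 32.0 and 49.3%. Both were found in 157, 215, 33 and 23 cells, or 3.83, 3.78, 0.635 and 0.459%. The product of the single shares would be 2.43, 2.10, 0.29 and 0.275%, so co-detection was more frequent than that in every library.

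Put the other way, most Nos2-positive phagocytes held Arg1. The share was 84.0% in HFD_shYap, 85.3% in HFD_WT, 70.2% in LFD_shYap and 82.1% in LFD_WT, against 51.9, 45.6, 31.7 and 49.1% of the Nos2-negative cells. The odds ratio was 4.86 (3.25 to 7.48) in HFD_shYap, 6.92 (4.84 to 10.1) in HFD_WT, 5.08 (2.64 to 10.3) in LFD_shYap and 4.76 (1.77 to 16.1) in LFD_WT. The intervals overlap, and no order of the libraries can be read from them. In Nos2-positive cells the median Arg1 count was 11, 9, 3 and 8.5 UMIs of 5000 in HFD_shYap, HFD_WT, LFD_shYap and LFD_WT, and in Nos2-negative cells 1 in HFD_shYap and 0 in the others.

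The same was asked within clusters. Of clusters with at least 5 Nos2-positive cells and a finite odds ratio, it was above 1 in 3 of 4 in HFD_shYap, 6 of 6 in HFD_WT, 1 of 1 in LFD_shYap and 2 of 2 in LFD_WT, from 0.943 to 6.94. In cluster 1, which held the most Nos2, it was 2.92 in HFD_shYap, 5.15 in HFD_WT, 1.98 in LFD_shYap and 4.004 in LFD_WT. Within HFD_shYap it was 2.34 in Xist-bearing and 9.15 in Y-bearing cells. Arg1 UMIs were also found in cells outside the phagocytes. At 2000 UMIs per cell, Arg1 was found in 9.38, 12.8, 5.99 and 11.7% of T lineage cells (median depth before thinning 6065.5, 4647, 5181 and 4117 UMIs) against 41.5, 35.5, 22.1 and 35.6% of phagocytes (11991, 10460, 9753 and 8153 UMIs), in HFD_shYap, HFD_WT, LFD_shYap and LFD_WT. The share was 21.2, 19.7, 12.1 and 21.1% of neutrophils (2171, 1945, 1828 and 1663.5 UMIs) in the same order of libraries, and 17.1, 27.1 and 28.6% of the B cells of HFD_shYap, HFD_WT and LFD_WT (3055.5, 2228 and 1939 UMIs). Free RNA and remaining doublets were not measured apart from expression in these cells. Nos2 was found in 0.25, 0.319, 0 and 0% of the same T lineage cells, where a count of 0, taken as 3 counts of the total, allows up to 0.528% in LFD_shYap and 0.595% in LFD_WT, against 2.61, 2.51, 0.501 and 0.27% of phagocytes.

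**Figure D5:**
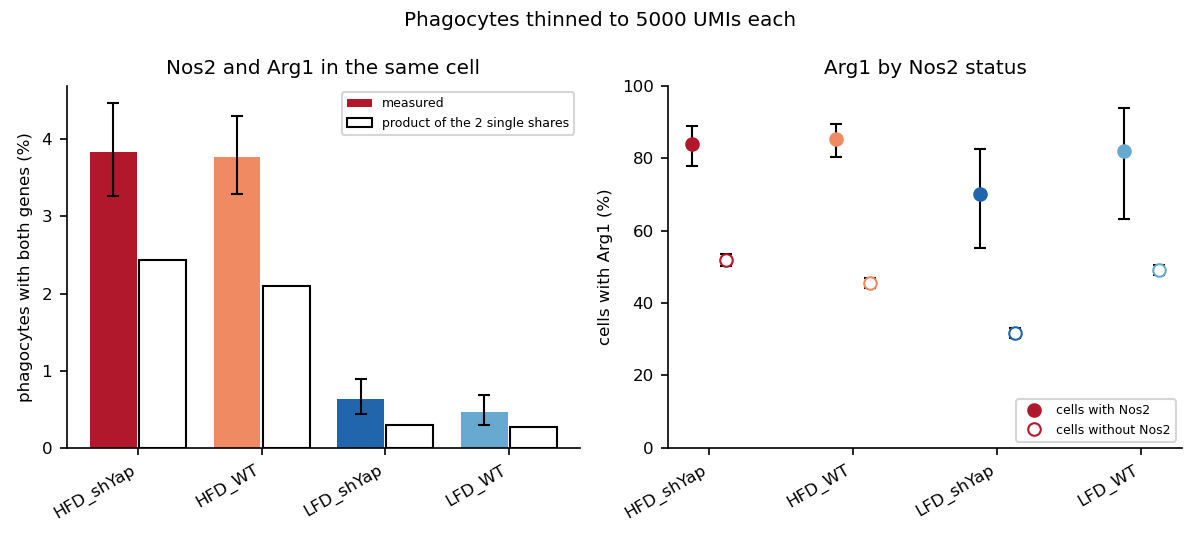
Phagocytes thinned to 5000 UMIs each. Left, the share with Nos2 and Arg1 UMIs (filled bars, with exact 95% binomial intervals) beside the product of the single shares (open bars), where the filled bar is higher in all 4 libraries. Right, the share of cells with Arg1 among cells with Nos2 (filled) and without it (open), from 70.2 to 85.3% against 31.7 to 51.9%.

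Among the other pairs of these genes, Arg1 with Slc7a2 went together most, with odds ratios of 4.81 to 6.89 over the libraries (median 5.26). Nos2 with Slc7a2 had a median of 3.89, Nos2 with Arg2 3.77 and Nos2 with Ass1 2.65. Pairs with Asl had medians of 0.84 to 1.01, near or below 1. Over the 40 sums of library by phagocyte cluster, Spearman's rho of the log2 levels was 0.84 for Arg1 and Slc7a2, 0.74 for Nos2 and Ass1, 0.67 for Ass1 and Slc7a2 and 0.55 for Nos2 and Arg1. These points share libraries, clusters and depth, and are a description only.

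By the same measure, among 5044 genes, those most like Nos2 were Ndrg1 (0.82), a stress- and hypoxia-responsive gene, Trim25 (0.81), a ubiquitin ligase of antiviral sensing, Cd274 (0.81), which encodes PD-L1, Gpalpp1 (0.81) and Actg1 (0.79), a cytoplasmic actin. Those most like Arg1 were Anxa2 (0.95) and Adam8 (0.95), a membrane-binding annexin and a cell-surface protease, Bst1 (0.94), the ADP-ribosyl cyclase CD157, Pygl (0.93), a glycogen phosphorylase, and Pgam1 (0.93), a glycolytic enzyme. The lists share no gene.

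No other gene of the pathway passed the test. Of 44 other genes of arginine transport, urea cycle, nitric oxide cofactor, polyamine, proline, creatine and arginine methylation, 36 were tested in phagocytes. For diet edgeR called 0 of the 36, in either direction, where 0.388% of all genes were called. At an unadjusted p under 0.05 there were 4 of the 36, and 872 of all 14158 genes. The median log2 fold change of the 36 was -0.01, as over all genes (-0.01). Of 20 regulators known to raise Nos2 or Arg1, all were tested and edgeR called 0, with 4 at an unadjusted p under 0.05 and a median of 0.10. The 8 genes of the wider pathway that were not tested were below the filter and include Cps1, Otc and Nags of the hepatic urea cycle. For tumour line, the medians of the pathway and regulator lists were -0.20 and 0.06, against 0.0047 over all genes, and edgeR called 0 of either list. At an unadjusted p under 0.05 there were 4 and 0 of these genes, and 802 of all 14158. Chosen after their values were seen, regulators among those with the smallest p for diet were Crem, a cAMP-responsive regulator, at 0.96 (SE 0.172, edgeR adjusted p = 0.0863) and Irf1, an interferon-induced transcription factor, at 0.50 (SE 0.153, edgeR adjusted p = 0.452). Of the wider pathway these were Smox, the spermine oxidase, at 0.62 (SE 0.156, edgeR adjusted p = 0.274), and Aldh18a1, of proline and ornithine synthesis, at 0.72 (SE 0.263, edgeR adjusted p = 0.637). Gch1, the rate-limiting enzyme for tetrahydrobiopterin, the cofactor of Nos2, named after its value was seen as well, had -0.14 (SE 0.152).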

How the data were processed

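The deposited files hold UMI counts per gene and cell barcode, and per the file headers came from Cell Ranger 6.0.0. Version 4.0.0 of that program, STAR 2.5.1 and the mm10 build are listed in the submitters' processing notes. Filters on cells before deposit are not given in the sources used here. From these counts, barcodes with at least 200 genes and at most 15% mitochondrial UMIs were kept. Doublets were scored with Scrublet in scanpy 1.11.5 (Python 3.11.15). Its automatic threshold marked 0, 305, 0 and 0 cells in HFD_shYap, HFD_WT, LFD_shYap and LFD_WT, so the highest-scoring cells were removed instead with a share that grows with the number of barcodes, 7.67, 11.1, 9.46 and 11.8% of those left in the same libraries. This left 7281, 10865, 9013 and 11084 cells with medians of 9946, 8762, 8956 and 6754 UMIs.

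Cells were clustered jointly on 2000 variable genes without the 7 arginine genes, 30 principal components and 15 neighbours (Leiden, resolution 1), with no batch correction. Of 29 clusters, 25 were named from marker lists and 4 (5478 cells) were not. Counts were summed per library and lineage. Mononuclear phagocytes, dendritic cells, neutrophils and the T lineage, each with at least 50 cells in each library, were tested with edgeR 4.0.16 (R 4.3.3). The settings were TMM, its default filter, quasi-likelihood, Benjamini-Hochberg over all genes tested and a threshold of 0.05. NK cells, B cells and fibroblast or stellate cells also had at least 50 cells in each library and were not tested. The SE was derived from the fold change and the F statistic and is approximate. Between single libraries, CPM ratios carry exact conditional 95% intervals and levels exact Poisson intervals, both for counting error only. In co-detection, cells under 5000 UMIs (369, 627, 614 and 1227 phagocytes in the same order of libraries) were left out. Alternatives were DESeq2 1.42.0, other normalization, filters, doublets kept, clustering with the 7 genes, the other diet label, leaving out each library and, chosen after the data were seen, leaving out single clusters.

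The genes and lists were chosen with earlier results of these data known. The genes named are the 7 arginine genes, list members past the phagocyte test, and the 5 genes most like Nos2 and most like Arg1 among those with at least 20 CPM; others are marked where they appear. Gene positions are from GENCODE on GRCm38. RefSeq promoter windows matched 2 of the 7 genes.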

Additional observations from a re-analysis of the deposited data

Results flagged for a closer look

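Several genes differed between libraries in opposite directions at the 2 levels of the other factor, by ratios whose counting intervals both leave out 1. With 1 library per combination, none of these differences between ratios was tested. In phagocytes, Arg1 was 1.44 times as high in HFD_shYap as in HFD_WT (1.43 to 1.45) and 0.659 times as high in LFD_shYap as in LFD_WT (0.65 to 0.667). With equal weight to each phagocyte cluster these ratios were 1.27 and 0.804, and without cluster 1 they were 1.41 and 0.748.

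In neutrophils, Arg2 had a ratio of 1.24 (1.12 to 1.37) for HFD_shYap over HFD_WT and 0.824 (0.687 to 0.989) for LFD_shYap over LFD_WT. Cluster 28 held 33 of the 352 neutrophils of LFD_shYap and 3 or 4 of those of each other library. In cluster 19 alone the Arg2 ratios were 1.25 (1.13 to 1.38) and 1.17 (0.97 to 1.41) in the same pairs, so the opposite directions were not seen there. In the T lineage, Ass1 had 1.78 (1.47 to 2.16) and 0.70 (0.528 to 0.929) in the same pairs. T lineage Odc1 had 1.15 (1.10 to 1.20) for HFD_shYap over HFD_WT and 0.795 (0.743 to 0.851) for LFD_shYap over LFD_WT.

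In dendritic cells, Arg1 had a ratio of 2.65 (2.09 to 3.40) for HFD_shYap over LFD_shYap and 0.818 (0.698 to 0.959) for HFD_WT over LFD_WT. For tumour line it had 1.18 (1.03 to 1.36) for HFD_shYap over HFD_WT and 0.364 (0.281 to 0.468) for LFD_shYap over LFD_WT. Its level there, 68.1, 57.6, 25.7 and 70.5 CPM in HFD_shYap, HFD_WT, LFD_shYap and LFD_WT, was below the 127, 106, 71.7 and 116 CPM that phagocyte RNA at the measured share of phagocyte markers would give. That estimate takes all marker RNA in dendritic cells as phagocyte RNA, which was not tested.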

How the results depend on the processing

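Over 17 alternatives the diet log2 fold change in phagocytes ran from 2.74 to 3.67 for Nos2, past the threshold in 16, from 1.51 to 2.30 for Ass1, past it in 15, and from 1.37 to 2.07 for Slc7a2, past it in 14. For tumour line none of the 7 genes was called under any of them. With the diet of the treatment field the phagocyte count for diet was 0. Leaving out each library gave 2 to 3. In dendritic cells the diet count was 3 with doublets kept (Nos2, Ass1 and Slc7a2), 0 with DESeq2 and 0 with the treatment field, and 0 to 2 without each library, 2 without LFD_WT (Arg1 and Ass1). Their tumour line count was 0 to 3 without each library, 3 without HFD_shYap (Arg1, Ass1 and Odc1, all lower). The T lineage diet count was 3 with doublets kept (Nos2, Ass1 and Slc7a2). The neutrophil diet count was 2 with no expression filter (Nos2 and Odc1), 2 in cluster 19 alone (Nos2 and Odc1), 1 with the treatment field (Nos2) and 0 to 1 without each library, 1 without LFD_shYap (Nos2). Diet calls over all genes moved as well. With doublets kept they were 66 higher and 47 lower of 11014 in dendritic cells (31 and 31 of 10404 before). In the T lineage they were 97 and 67 of 12159 (47 and 46 of 10877 before). With no expression filter they were 118 and 43 of 15276 in neutrophils (0 of 6521 before). With DESeq2 they were 7 and 4 of 3771 in dendritic cells. With the treatment field they were 0 of 14736 in phagocytes. For fits without each library, calls over all genes are not listed. They rose in some, among them the dendritic cell tumour line fit without HFD_shYap, and fell in others. The gene counts given for those fits are therefore not read as a result about the arginine genes. The cause of these changes was not tested, and leaving out a library also leaves fewer samples.

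Of the uncalled phagocyte log2 values, some changed sign. For diet these were Arg2 at -0.072 without LFD_WT (-0.072 to 0.63 over the libraries left out), and Asl at -0.0077 without cluster 1, -0.0042 without LFD_WT and -0.0097 without HFD_WT (-0.0097 to 0.0398). For tumour line they were Nos2 at -0.80 with the treatment field, -0.80 without LFD_WT and -1.86 without HFD_shYap (-1.86 to 2.87 over the libraries left out), and Slc7a2 at -0.73 without HFD_shYap (-0.73 to 1.504). Arg1 was at 0.034 without cluster 1, 0.0028 with the Xist-bearing cells of HFD_shYap alone, 0.037 with tumour line alone in the model, 0.45 without LFD_shYap and 0.081 without HFD_WT (-0.56 to 0.45). Arg2 was at -0.092 with the treatment field and -0.096 without LFD_WT (-0.096 to 0.63), and Ass1 at 0.61 without HFD_WT (-1.94 to 0.61). Asl was at -0.0081 with no filter, -0.0018 at a mitochondrial limit of 10%, -0.0038 with the Y-bearing cells of HFD_shYap alone, -0.028 with the treatment field, -0.032 without LFD_WT and -0.016 without LFD_shYap (-0.032 to 0.033).

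Of the 4 genes at least 2-fold apart between HFD_shYap and LFD_shYap, 2 were so in each of clusters 0, 2, 7, 9 and 13 taken alone. Between HFD_WT and LFD_WT, with 3 genes, the count was 1 in each of clusters 0, 4 and 5. Nos2 had 0 UMIs in LFD_WT in clusters 5, 6 and 7, against 6, 52 and 1 in HFD_WT. It has no ratio over LFD_WT in those clusters and is left out of their counts, here and for LFD_shYap over LFD_WT. Between HFD_shYap and HFD_WT, with 0 genes, it was 1 without cluster 2, 1 with the Xist-bearing cells, 1 in each of clusters 0, 1, 3, 4, 9 and 13, 2 in each of clusters 2 and 5, and 5 in cluster 7. Some of these rest on few molecules: in cluster 7 Nos2, Ass1 and Slc7a2 had 3, 7 and 4 UMIs in HFD_shYap and 1, 2 and 1 in HFD_WT. The share of all genes past 2-fold was not counted within clusters, so the counts by cluster are not read as differences. Between LFD_shYap and LFD_WT, with 0 genes, it was 3 in cluster 0, 2 in each of clusters 1, 4 and 9, and 1 in each of clusters 2, 3, 6, 7 and 13.

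The odds ratio of Nos2 with Arg1 in HFD_shYap was 8.06 with at least 2 UMIs of each, 8.53 with doublets kept, 2.34 in Xist-bearing and 9.15 in Y-bearing cells, and 2.92, 0.943, 8.75, 0.987 and 2.41 in clusters 1, 3, 6, 9 and 13. In HFD_WT it was 10.7 with at least 2 UMIs, and 1.77 and 2.87 in clusters 0 and 6. In LFD_shYap it was 2.44 at 2000 UMIs per cell, and 1.98, 1.81 and 0 in clusters 1, 9 and 13, the last with 0 cells holding both. In LFD_WT it was 1.15 and 1.46 in clusters 4 and 9. Among named types with at least 50 cells in every library, which leaves out mature dendritic and Kupffer cells among others, the one with the highest mean level changed for Asl, from fibroblast or stellate cells to phagocytes, with doublets kept or with the 7 genes among those clustered on, and for Odc1, from the T lineage to fibroblast or stellate cells, with doublets kept. No paired analysis was possible because each group has 1 library, so no replicate numbers are shared between 2 or more pairs. Without cluster 1, without cluster 2, cluster 19 alone among neutrophils, without each library beyond phagocytes, and with the low-depth clusters 8 and 11 added were alternatives chosen after the data were seen.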
